A study of Mus musculus with 6 samples.

Results

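The set described here holds genes that mark B cells, plasma cells, T cells and cytotoxic lymphocytes, together with Pigr, the epithelial receptor that carries antibody into milk. It has 34 named members. Each was read from the array table through the probe set with the highest mean signal over the 6 arrays among probe sets annotated with a single symbol. That gave a value for 31 of the 34, out of 18193 genes with such a probe set; Il2rg, Lck and Tcf7 were not analysed here.

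RNA came from whole mammary glands of 3 Elf5 KO and 3 wild-type mice, 1 Affymetrix array per animal. Elf5 is an ETS-family transcription factor that luminal mammary cells make. The labels give the genotype only as Elf5 KO or wild type, with no allele, Cre driver, strain or age, so which cells lost the gene is not stated. The sample labels place all 6 glands at pregnancy day 17, while the series' design text speaks of the first day of lactation. They do not say whether the lymph node inside the gland was removed.

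B cells carry an antigen receptor that signals through the Cd79a and Cd79b chains, and T cells carry a receptor that signals through the CD3 chains, the kinases Lck and Zap70 and the adaptor Lat. Around birth, antibody-producing plasma cells settle in the mammary gland. Their dimeric IgA binds the receptor made from Pigr on the basal side of the epithelium and is released into milk. A whole-gland array reads the sum of all its cells, so more cells of a type and more RNA per cell cannot be told apart.

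Epcam, a luminal epithelial marker outside the rule for named genes, read 1910, 3670 and 3631 in KO arrays 1, 2 and 3. Wild-type arrays 1, 2 and 3 read 2869, 3067 and 3271. A dimmer Epcam probe set read 175, 227 and 403 in the KO, against 301, 432 and 418 in wild type. Of 13 listed luminal genes, 5 had a higher mean in the KO and 8 a lower one. Elf5 read 5616, 4361 and 3128 in the KO, against 12011, 8044 and 7244 in wild type (limma adjusted p = 0.109, and 0.0168 with the replicate number as a block). The labels do not say which part of Elf5 was removed, so a remaining signal is no measure of the deletion. The arrays differed in RNA quality. Gapdh is read by control probe sets at both ends of its transcript, and the 3'/5' ratio, which rises as RNA breaks down, was 0.802, 3.89 and 13.6 in KO arrays 1, 2 and 3, against 0.833 to 1.09 in wild type. The same ratio for Actb was 1.58, 1.87 and 21.0 in the KO, against 1.20 to 2.04 in wild type, so by Actb only KO array 3 stood apart. Values for KO array 1 against the 3 wild-type arrays, the 4 arrays with a Gapdh ratio under 2, are therefore given beside the results below. They rest on 1 KO animal.

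Apart from Pigr, the lymphocyte genes were of low to middle brightness. Their mean signals over the 6 arrays lay between 10.9 and 206, and 16 of the 31 averaged under 100, where the median over all probe sets of an array was 24.6 to 41.3. Of the 31, 24 passed the filter on dim genes, a mean signal of 47.75, and were tested; Blk, Pax5, Cd4, Cd6, Cd28, Prf1 and Ccr7 lay below it. Signals were compared as log2(signal + 16), so differences of dim genes are understated. Errors of differences are limma's standard errors (SE) with 3 arrays per group.

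None of the 24 passed over all genes tested (limma, Benjamini-Hochberg adjusted p under 0.05), where 1.09% of 10916 genes did, 1.02% higher and 0.0733% lower. Among the 31 fitted with no filter none passed either, against 0.159% of all genes, 0.148% higher and 0.011% lower. Without KO array 1, Cd3d, Il7r and Pou2af1 rose and Il2rb fell, or 3 and 1 of 24, where 6.1% and 5.06% of all genes did (11.2% in all). At an unadjusted p under 0.05, which 22.2% of all genes tested reached, 10 were higher and 2 lower, or 41.7% and 8.33% of the 24, against 13.7% and 8.53% of all genes tested. Arrays with the same replicate number deviated together, and with that number as a block 7 rose (Cd3d, Il7r, Ltb, Pou2af1, Klrd1, Ms4a1 and Cd79b) and 2 fell (Pigr and Zap70). Those 29.2% and 8.33% stand beside 7.58% and 4.44% of all genes tested, of which 12% passed in all. The block was not part of the design written for this comparison, and the labels do not say that the numbers pair the animals.

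Without any filter or fit, the 3 KO signals of 11 of the 31 measured members lay above all 3 wild-type signals, or 35.5%, against 12.5% of all 18193 genes (17% of those tested). Pigr alone lay below, 3.23% of the members, against 12.3% of all genes (10.7% of those tested). In KO array 1 taken singly, 20 of the 31 lay above all wild-type arrays and 1 below, against 26.5% and 24.5% of all genes. The median difference of the 24 tested was 0.45 on the log2 scale and 0.81 in KO array 1 against wild type, where all genes tested had medians of 0.07 and 0.04. The KO mean of log2 values was higher for 16 of the 24 tested and 20 of the 31 measured, against 54.1% and 45.5% of all genes.

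**Figure D1:**
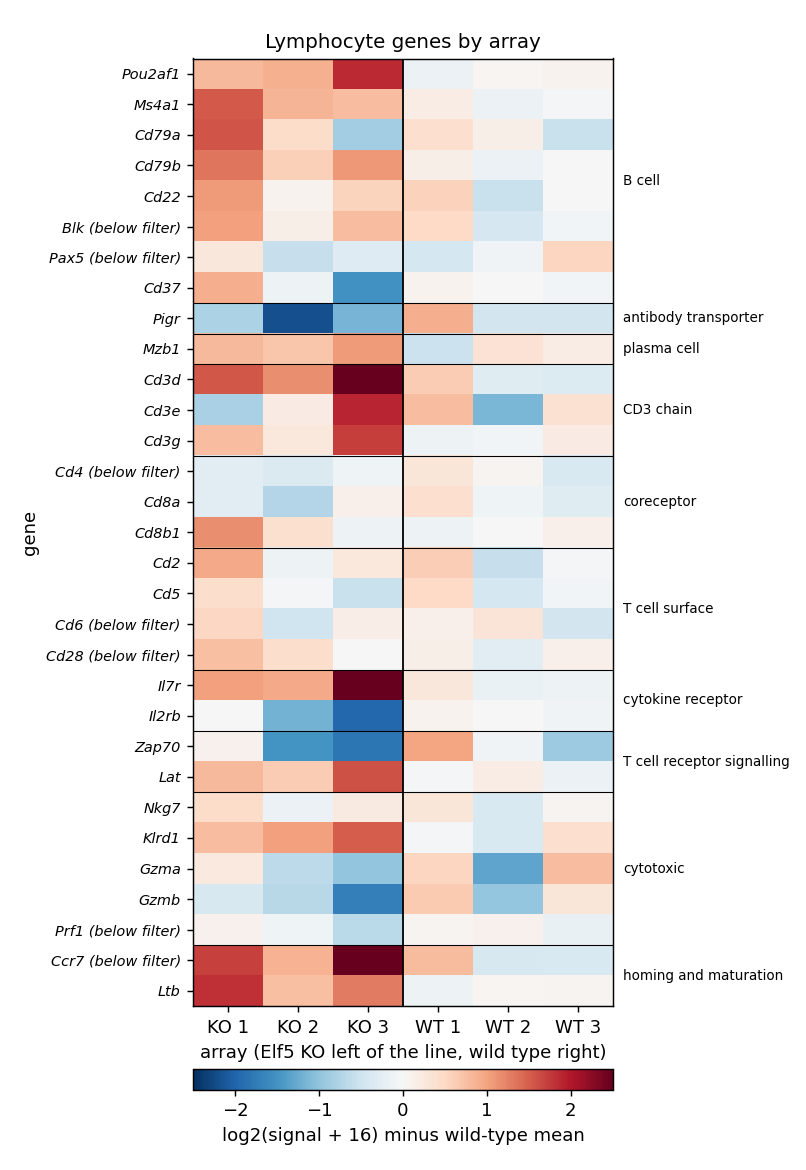
Heat map of the 31 measured lymphocyte genes (rows, grouped by role) in 3 Elf5 KO arrays (left) and 3 wild-type arrays (right); colour is log2(signal + 16) minus the gene's wild-type mean. Ltb, Ms4a1 and Cd79b are above the wild-type mean in all 3 KO arrays, Pigr is below it, and the CD3 chains reach their highest values in KO array 3.

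With the block, Pigr had the smallest p of the 2 genes that fell, and Ltb and Cd3d had the smallest of the 7 that rose, so the sequences around the start sites of these 3 are shown. Each runs from 250 bases before to 50 after the start site in RefSeq on GRCm38.p6, 5' to 3'. Capitals mark AGGAAG or its reverse complement CTTCCT, a form of the core bound by ETS factors, and CACGTG, the E-box. The arrays did not measure binding.
Pigr, chr1:130826434-130826733, strand +: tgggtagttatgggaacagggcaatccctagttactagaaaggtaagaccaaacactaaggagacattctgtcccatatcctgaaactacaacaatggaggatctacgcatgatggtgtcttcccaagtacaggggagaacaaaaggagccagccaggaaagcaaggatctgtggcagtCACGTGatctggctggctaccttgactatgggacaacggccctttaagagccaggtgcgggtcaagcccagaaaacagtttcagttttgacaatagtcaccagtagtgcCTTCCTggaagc
Ltb, chr17:35194257-35194556, strand +: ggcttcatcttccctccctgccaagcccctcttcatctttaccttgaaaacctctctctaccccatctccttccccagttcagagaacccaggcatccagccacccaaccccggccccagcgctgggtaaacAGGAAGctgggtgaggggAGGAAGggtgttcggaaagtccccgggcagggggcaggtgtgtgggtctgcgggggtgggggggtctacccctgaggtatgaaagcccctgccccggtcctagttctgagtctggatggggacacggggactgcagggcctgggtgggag
Cd3d, chr9:44981536-44981835, strand +: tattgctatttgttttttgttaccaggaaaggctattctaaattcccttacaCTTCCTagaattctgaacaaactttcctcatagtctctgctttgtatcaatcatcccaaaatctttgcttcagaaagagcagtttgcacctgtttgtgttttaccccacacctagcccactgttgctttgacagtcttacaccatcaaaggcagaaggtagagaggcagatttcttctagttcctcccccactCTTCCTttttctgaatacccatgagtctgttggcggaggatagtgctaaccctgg
Pigr held 1 AGGAAG match, after the start, and 1 E-box before it. Ltb held 2 AGGAAG matches before the start. Cd3d held 2, one before the start and one that ends on the first base at the start. AGGAAG was found on either strand in 35.4% of all 32851 promoter windows of the table and CACGTG in 7.15%. Of the members, 22 had 26 windows there; 16 windows held AGGAAG and 4 held CACGTG. The matches are letters in a window, not binding sites.

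Pigr, far brighter than the lymphocyte genes, was lower in every KO gland. Its signal was 4307, 1614 and 3338 in KO arrays 1, 2 and 3, against 14064, 5444 and 5472 in wild-type arrays 1, 2 and 3. The groups did not overlap, and array 1 was highest in both. Means were 3086 ± 1364 in the KO and 8327 ± 4969 in wild type (SD, n = 3 each), a log2 difference of -1.39 ± 0.47 (SE; limma adjusted p = 0.140, and 0.0195 with the block). In KO array 1 against wild type the difference was -0.80. A second Pigr probe set read 3391, 1071 and 142 in the KO, against 11678, 5088 and 2236 in wild type. There KO array 1 lay above wild-type array 3, so the groups overlapped, and the log2 difference was -2.62 ± 1.01 (limma adjusted p = 0.284 over all probe sets, and 0.0891 with the block).

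Genes on the supply side of antibody were mixed, and the 4 given next are single genes, not a summary of their lists. Mzb1, a chaperone of antibody assembly in plasma cells and marginal zone B cells, read 257, 234 and 310 in the KO, against 90.6, 185 and 160 in wild type. It was higher in every KO array, by 0.85 ± 0.32, without passing (adjusted p = 0.173, and 0.0905 with the block). Jchain, the chain that joins IgA into dimers, read 2740, 3905 and 5848 in the KO, against 1105, 2485 and 3174 in wild type, with overlapping groups. It rose with the block alone (0.94 ± 0.44; adjusted p = 0.240, and 0.0358 with the block), and in both genotypes array 1 was lowest. Igha, the heavy chain of IgA, read 8551, 7768 and 7607 in the KO, against 2718, 7382 and 6161 in wild type. By this probe set it lay higher in all KO arrays, with wild-type array 1 far below the rest (0.67 ± 0.37, adjusted p = 0.305, and 0.160 with the block). The other 2 Igha probe sets overlapped between the groups. One read 8467, 6493 and 5243 in the KO, against 3847, 8401 and 6013 in wild type, a difference of 0.19, and the other differed by 0.54. The brightest of 11 Ighm probe sets read 889, 2316 and 4302 in the KO, against 312, 1273 and 1354 in wild type. Its groups overlapped, with a log2 difference of 1.32 ± 0.66 (limma adjusted p = 0.267, and 0.0223 with the block). The dimmer Ighm probe sets differed by -0.46 to 3.09, and the dimmest were negative. Antibody genes are a large family of like sequences, and their probe sets may share targets, so the Igha and Ighm values are uncertain. Igha and Ighm, and Ccl28 below, fall outside the rule for named genes and were chosen after their values were seen.

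**Figure D2:**
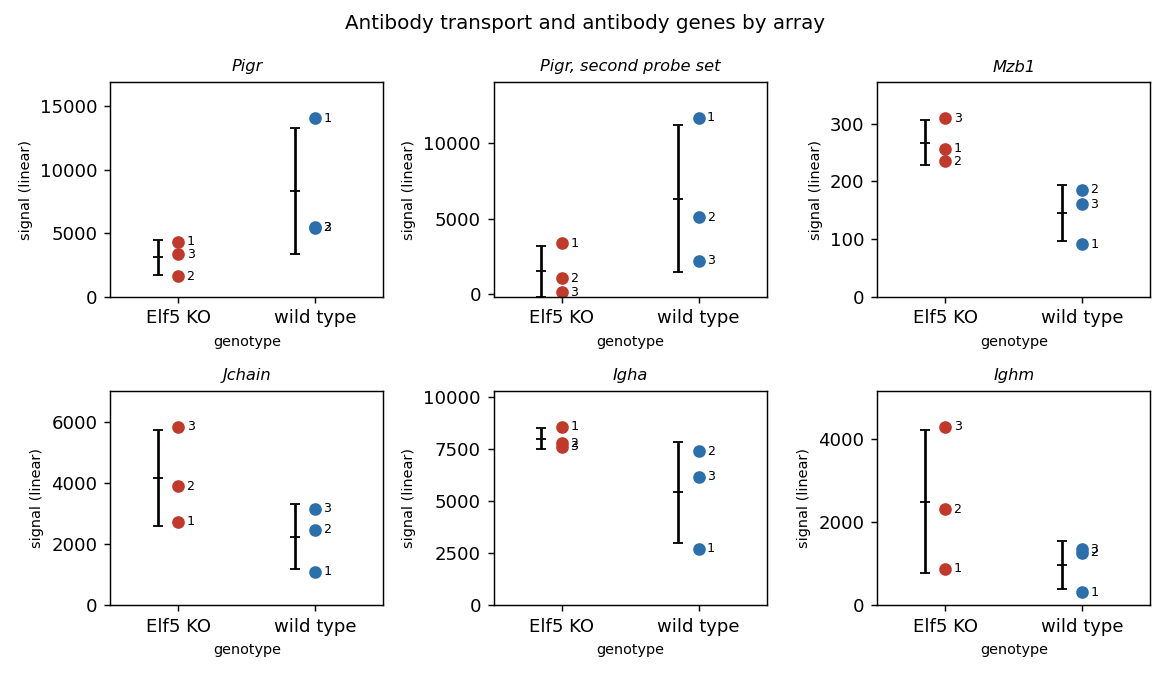
Signals (linear units) of Pigr, its second probe set, Mzb1, Jchain, Igha and Ighm in 3 Elf5 KO arrays (left, red) and 3 wild-type arrays (right, blue); numbers are replicates and black bars the mean ± SD. Pigr lies between 1614 and 4307 in the KO, against 5444 to 14064 in wild type, while the 4 antibody genes have higher KO means.

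Of 13 genes listed for plasma cells and immunoglobulins, 9 were measured and 7 tested. Of the 7, 4 had a higher mean and none passed. With the block 2 rose and 1 fell, or 28.6% and 14.3%, against 7.58% and 4.44% of all genes tested. The one that fell was Fkbp11, a folding enzyme of secretory cells (-1.52 ± 0.38, adjusted p = 0.0794, and 0.0156 with the block). It read 3180, 1283 and 1385 in the KO, against 6366, 5021 and 4249 in wild type. Sdc1, the plasma cell surface proteoglycan that epithelium makes too, differed by 0.96 ± 0.43 (adjusted p = 0.228). A list of 18 genes for antibody supply and plasma cell homing had 12 tested members, 7 with a higher mean, and no call. With the block 4 of the 12 rose and 1 fell, or 33.3% and 8.33%, against the same shares of all genes tested. In this list Cxcl12, a chemokine that retains plasma cells, was higher by 1.28 ± 0.29 (adjusted p = 0.0651). Vcam1, an adhesion molecule of activated endothelium and stroma, was higher by 1.68 ± 0.44 in its brightest probe set (adjusted p = 0.0837). Fcgrt, the neonatal Fc receptor, was higher by 1.13 ± 0.30 (adjusted p = 0.0861). With the block the adjusted p-values of Cxcl12, Vcam1 and Fcgrt were 0.0243, 0.0145 and 0.0424. The dimmer Vcam1 probe sets differed by -0.02 and -0.18, with overlapping groups. Ccl28, the epithelial chemokine that draws IgA plasma cells to the gland, read 948, 255 and 245 in the KO, against 3087, 106 and 442 in wild type. Its arrays numbered 1 were high in both genotypes, and the difference of -0.45 ± 1.00 was well within its error (adjusted p = 0.810).

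Among the 8 B cell genes, 3 lay above wild type in every KO array, or 37.5%, against 12.5% of all measured genes. Ms4a1, which encodes CD20, read 231, 138 and 129 in the KO, against 81.9, 61.7 and 66.8 in wild type. The difference was 1.05 ± 0.31 (adjusted p = 0.108, and 0.0407 with the block), and a second Ms4a1 probe set, at 85.8, 77.7 and 170 in the KO, against 30.5, 31.8 and 29.0 in wild type, was separate too. Cd79b, a signalling chain of the B cell receptor, read 227, 129 and 187 in the KO, against 89.6, 70.3 and 80.2 in wild type (1.01 ± 0.30, adjusted p = 0.108, and 0.0430 with the block). Pou2af1, the B cell coactivator of octamer-binding factors, read 133, 140 and 292 in the KO, against 60.5, 72.0 and 74.5 in wild type (1.19 ± 0.34, adjusted p = 0.103, and 0.0383 with the block). In each of the 3 genes the wild-type arrays lay close together and the KO arrays were spread.

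The other receptor and surface genes of B cells were highest in KO array 1, and their groups overlapped. Cd79a, the partner chain of Cd79b, read 203, 85.6 and 24.7 in the KO, against 83.7, 65.4 and 34 in wild type. KO array 3 thus lay below all wild-type arrays and the difference was within its error (0.39 ± 0.56, adjusted p = 0.703). Cd37, a tetraspanin of B cells and other leukocytes, read 216, 97.6 and 27.3 in the KO, against 115, 107 and 102 in wild type (-0.25 ± 0.53, adjusted p = 0.802). KO arrays 2 and 3 lay below all wild-type arrays and KO array 1 above them, by 0.90 over the wild-type mean, and a dimmer Cd37 probe set differed by 0.50. Cd22, an inhibitory receptor of B cells, read 231, 108 and 156 in the KO, against 158, 63.8 and 100 in wild type (0.57 ± 0.38, adjusted p = 0.393). Each KO array of Cd22 lay above the wild-type array of its number, by 0.50, 0.64 and 0.57. Below the filter, the kinase gene Blk read 67.0, 29.3 and 53.6 in the KO, against 41.9, 14.4 and 22.9 in wild type, and Pax5, the factor that fixes B cell identity, 32.2, 10.5 and 15.7, against 13.0, 21.0 and 41.7. Both overlapped. KO array 1 held the highest signal of 6 of the 8 B cell genes, where 12.3% of all measured genes were highest in it. The summed signal of the 8 was 1340, 739 and 886 in KO arrays 1, 2 and 3, against 644, 476 and 522 in wild type.

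**Figure D3:**
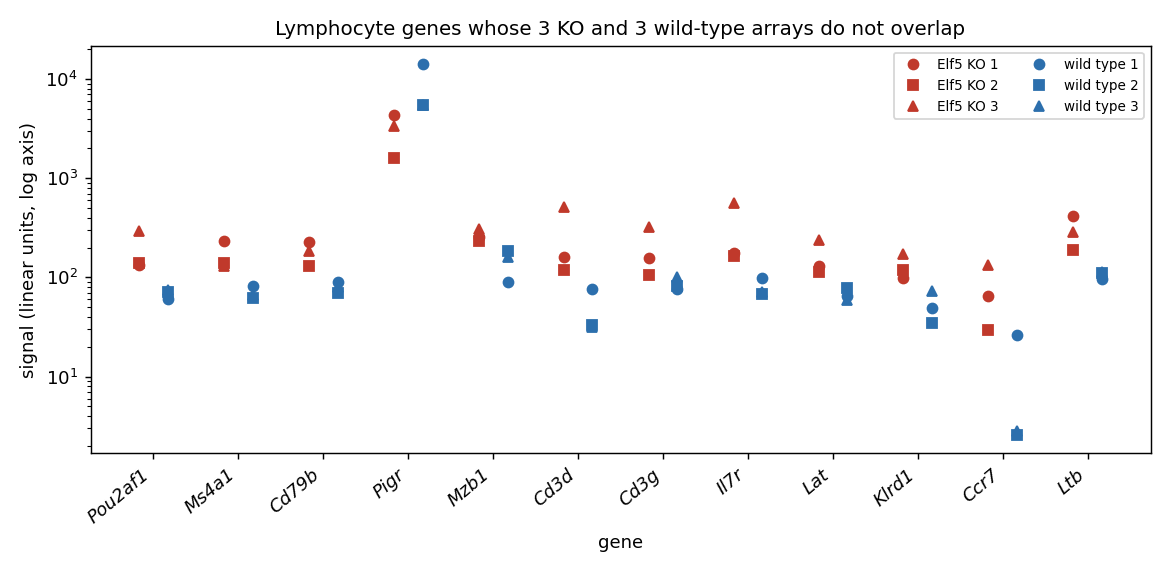
Signals (log axis, linear units) of the 12 lymphocyte genes whose 3 Elf5 KO arrays (red, left of each pair) and 3 wild-type arrays (blue, right) do not overlap; the marker shape gives the replicate. In 11 of them the KO arrays are higher, and in Pigr they are lower.

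The CD3 chains were highest in KO array 3, the array with the Gapdh ratio of 13.6. Cd3d read 160, 118 and 507 in the KO, against 77.1, 32.9 and 31.7 in wild type. Its difference was the largest of the 24, 1.94 ± 0.51 (adjusted p = 0.0860, and 0.0358 with the block), and 1.55 in KO array 1 against wild type. Cd3g read 159, 107 and 323 in the KO, against 77.2, 81.1 and 102 in wild type (0.92 ± 0.39, adjusted p = 0.205, and 0.0808 with the block). Cd3d and Cd3g were thus separate between the groups, and Cd3e was not. Cd3e read 34.2, 85.6 and 315 in the KO, against 134, 24.1 and 99.2 in wild type (0.43 ± 0.69, adjusted p = 0.733), and -0.82 in KO array 1 against wild type. The 3 genes are neighbours on chromosome 9 in RefSeq, where 1355 bases part the start sites of Cd3g and Cd3d and 27825 those of Cd3d and Cd3e.

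Of the genes that act just downstream of the receptor, Lat, the membrane adaptor, read 131, 113 and 236 in the KO, against 64.8, 78.9 and 59.1 in wild type. It was higher in every KO array (1.02 ± 0.33, adjusted p = 0.133, and 0.0708 with the block). The kinase gene Zap70 pointed the other way: it read 259, 74.5 and 56.6 in the KO, against 489, 223 and 119 in wild type, with overlapping groups (-1.06 ± 0.59, adjusted p = 0.308, and 0.0406 with the block). Its other probe sets were much dimmer and had the opposite sign, at 37.8, 15.5 and 48.7 in the KO, against 16, 46.6 and 15.5 in wild type, and at 63.2, 36.7 and 20.6 in the KO, against 23.5, 23.7 and 9.5. The brightest one differed by 0.12 in KO array 1 against the mean of wild type, but each KO array lay below the wild-type array of its number, by -0.88, -1.40 and -0.89. The direction of Zap70 thus differed between probe sets.

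The coreceptors and costimulatory genes did not separate the genotypes. Cd4, which marks helper T cells, was near the bottom of the scale, at 8.0, 6.4 and 10.7 in the KO, against 19.5, 14.5 and 6.3 in wild type. Cd8a, which marks killer T cells, read 74.1, 50.1 and 104 in the KO, against 131, 85.9 and 73.0 in wild type (-0.30 ± 0.34, adjusted p = 0.616). Of its 4 dimmer probe sets 3 had a positive difference. Cd8b1, the partner chain of Cd8a, read 120, 64.5 and 40 in the KO, against 39.6, 45.6 and 50.2 in wild type (0.48 ± 0.37, adjusted p = 0.456). The adhesion gene Cd2 read 131, 53.2 and 75.7 in the KO, against 100, 34.7 and 58.6 in wild type (0.36 ± 0.41, adjusted p = 0.614), and Cd5, which dampens receptor signals, read 74.7, 49.8 and 29.7, against 79.2, 33.6 and 48.0 (-0.05 ± 0.38, adjusted p = 0.949). Both overlapped. Below the filter, Cd6, a relative of Cd5, read 48.7, 15.9 and 34.6 in the KO, against 33.5, 40.9 and 17.0 in wild type. The costimulatory receptor gene Cd28 read 49.9, 37.2 and 22.8 in the KO, against 27.7, 16.5 and 26.8 in wild type.

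Genes of lymphocyte homing and survival held some of the clearest separations. Ltb encodes lymphotoxin beta, which lymphocytes use to organise lymphoid tissue, and it had the smallest p of the 24. It read 416, 190 and 287 in the KO, against 96.8, 110 and 113 in wild type. Means were 298 ± 113 in the KO and 107 ± 8.59 in wild type (SD, n = 3 each), a difference of 1.29 ± 0.33 (adjusted p = 0.0798, and 0.0358 with the block), and 1.82 in KO array 1 against wild type. Ccr7, the receptor that guides lymphocytes to lymph nodes, was below the filter and read 64.3, 29.2 and 133 in the KO, against 26.5, 2.6 and 2.8 in wild type. Fitted with no filter, Ccr7 differed by 1.73 ± 0.48 (adjusted p = 0.124), with wild-type array 1 just under KO array 2. Il7r, the receptor for the survival cytokine interleukin 7, read 176, 166 and 565 in the KO, against 98.8, 68.7 and 70.5 in wild type (1.53 ± 0.45, adjusted p = 0.104, and 0.0446 with the block). A dimmer Il7r probe set overlapped, at 43.7, 60.3 and 19.8 in the KO, against 31.3, 27.9 and 16.8 in wild type. Il2rb, the chain shared by the receptors for interleukins 2 and 15, did not follow Il7r. It read 84.6, 28.4 and 10.1 in the KO, against 91.2, 85.4 and 79.0 in wild type (-1.05 ± 0.46, adjusted p = 0.221). Among KO arrays it was lower where the Gapdh ratio was higher, KO array 1 differed from wild type by -0.01, and a dimmer Il2rb probe set differed by 0.26.

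The cytotoxic genes divided. Klrd1, which encodes the natural killer receptor chain CD94, read 97.6, 119 and 174 in the KO, against 48.8, 34.7 and 73.1 in wild type, with every KO array higher (1.10 ± 0.34, adjusted p = 0.115, and 0.0376 with the block). None of the granule genes passed. Gzma, a granule protease, read 193, 94.6 and 72.6 in the KO, against 238, 54.5 and 285 in wild type (-0.47 ± 0.56, adjusted p = 0.636), and it differed by 0.25 in KO array 1 against wild type. Gzmb, its relative, read 54.6, 41.3 and 12.3 in the KO, against 130, 31.8 and 99.5 in wild type (-0.94 ± 0.50, adjusted p = 0.286). For both, wild-type array 2 was far below the other wild-type arrays. Nkg7, a granule membrane protein, read 88.1, 52.1 and 72.0 in the KO, against 76.4, 42.1 and 63.3 in wild type (0.18 ± 0.32, adjusted p = 0.756). Nkg7 was higher in each KO array than in the wild-type array of its number, by 0.17, 0.23 and 0.15. Prf1, which encodes the pore protein perforin, lay below the filter at 39.8, 32.5 and 16.4 in the KO, against 38.7, 40 and 30 in wild type.

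**Figure D4:**
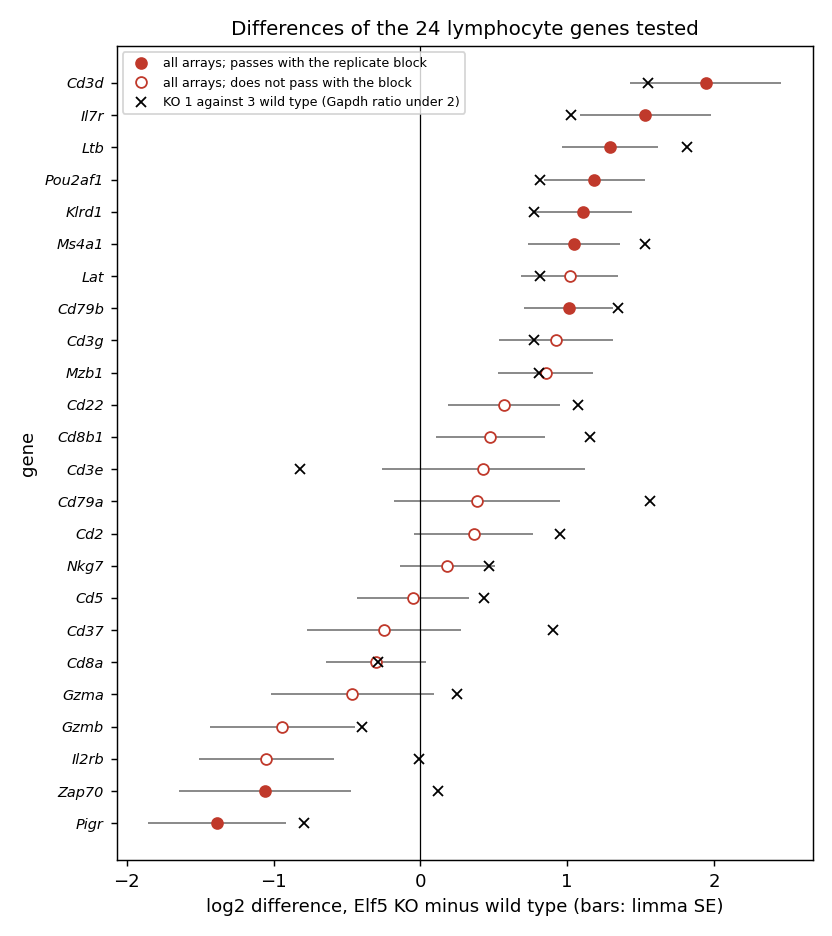
Log2 difference (Elf5 KO minus wild type, x axis) of the 24 tested lymphocyte genes with limma SE; filled circles pass with the replicate block, open circles do not, and crosses give KO array 1 against the 3 wild-type arrays. Cd3d is highest at 1.94 and Pigr lowest at -1.39; for Cd3e, Zap70, Cd37, Cd5 and Gzma the cross lies on the other side of 0.

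Across the 31 measured genes, KO array 1 was highest for 12, KO array 3 for 9 and KO array 2 for none, against 12.3%, 22% and 14.1% of all measured genes. Wild-type arrays 1, 2 and 3 were highest for 7, 1 and 2, against 27.3%, 13.2% and 11.1% of all genes. The gene by gene median of the KO array minus the wild-type mean was 0.77 for KO array 1, 0.15 for KO array 2 and 0.23 for KO array 3, with -0.00, -0.06 and -0.13 over all genes. B cell genes had medians of 1.05, 0.30 and 0.66 in the 3 KO arrays, CD3 chains 0.77, 0.27 and 1.90, and cytotoxic genes 0.25, -0.14 and -0.68. The KO arrays also differed in their Gapdh ratios, whose part in these medians was not tested.

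Lists of other genes of the same cells gave few calls, where 1.02% of all genes tested were called higher and 0.0733% lower. Of 22 further B lineage genes 20 were measured and 14 tested, and 12 of these had a higher mean (median 0.61). Blnk, the adaptor under the B cell receptor, rose: it read 333, 245 and 388 in the KO, against 117, 87.5 and 76 in wild type (1.62 ± 0.30, adjusted p = 0.0455). With the block 4 rose and 1 fell, or 28.6% and 7.14%, against 7.58% and 4.44% of all genes tested. Of 28 further T lineage genes 23 were measured and 11 tested, 9 with a higher mean (median 0.94). Fitted with no filter, 15 of the 23 had a higher mean and 8 a lower one, with a median of only 0.23. Satb1, a chromatin organiser of developing T cells that other cells use too, rose and read 153, 322 and 277 in the KO, against 50.5, 55.8 and 56.8 in wild type (1.86 ± 0.33, adjusted p = 0.0440). With the block 4 rose and 0 fell, or 36.4% and 0%, against the same shares of all genes tested. Both calls were lost in the comparison of KO array 1 with wild type, where no gene passed, and Blnk and Satb1 differed there by 1.69 and 1.27. Of 20 further cytotoxic genes 19 were measured but only 3 tested, and none passed. Il18rap, a chain of the interleukin 18 receptor, was the lowest of these 3 at -1.79 ± 0.43 (adjusted p = 0.0719, and 0.0254 with the block). Ctsw differed by -0.42 ± 0.29 (adjusted p = 0.402) and the chemokine Ccl5 by 0.11 ± 0.34 (adjusted p = 0.869).

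Of 22 listed ligands and signalling partners of the members 20 were measured and 12 tested, and none passed. Of the 12, 3 had a higher mean, against 54.1% of all genes tested. Their median was -0.26, and 0.07 in KO array 1 against wild type, and at an unadjusted p under 0.05, 2 were higher and 2 lower. Il15, the cytokine that signals through Il2rb, read 150, 212 and 157 in the KO, against 418, 687 and 363 in wild type. It was lower in every KO array (-1.38 ± 0.33, adjusted p = 0.0692, and 0.0213 with the block), and by -1.56 in KO array 1 against wild type. Jak3, the kinase under the shared cytokine receptor chain, differed by -1.49 ± 0.45 (adjusted p = 0.109, and 0.0319 with the block), but by -0.52 in KO array 1. Ptpn6, a phosphatase of blood cells, was higher by 1.25 ± 0.39 in its brightest probe set (limma adjusted p = 0.119, and 0.0266 with the block). A second Ptpn6 probe set overlapped, at 361.1, 267.8 and 80.8 in the KO, against 267.7, 167.4 and 148.5 in wild type. Its difference was 0.09 ± 0.51.

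Markers of other cells were measured beside the lymphocyte genes. Of 25 pan-leukocyte genes 23 were tested, 21 had a higher mean, against 54.1% of all genes tested, and none passed. With the block 6 rose and 1 fell, or 26.1% and 4.35%, against 7.58% and 4.44% of all genes tested. Ptprc, which encodes the leukocyte antigen CD45, read 846, 787 and 1835 in the KO, against 352, 281 and 313 in wild type (1.72 ± 0.37, adjusted p = 0.0601, and 0.0203 with the block). Dock2 and Itgb2, of leukocyte migration and adhesion, differed by 1.75 ± 0.36 (adjusted p = 0.0548) and 1.34 ± 0.32 (adjusted p = 0.0704), and passed with the block (0.0231 and 0.0221). The summed pan-leukocyte signal was 10136 to 15834 in the KO, against 9357 to 15481 in wild type, so the sums overlapped. Cytip, a leukocyte adaptor gene singled out after its values were seen, is by far the brightest of the list and read 4492, 2807 and 4333 in the KO, against 9962, 4995 and 7442 in wild type. The other 24 genes summed to 11342, 7329 and 8808 in the KO, against 5519, 4362 and 4424 in wild type, with no overlap. Cytip was left out because of its own values, and that separation follows from the choice. Ikzf1, a lymphoid transcription factor gene, was also lower in every KO array, at 400, 360 and 265, against 627, 519 and 690 in wild type. Of the 25, 12 lay wholly above wild type and 2 wholly below, or 48% and 8%, against 12.5% and 12.3% of all measured genes. Of 21 myeloid genes 20 were tested and 4 rose: the macrophage receptors Cd163 (1.93 ± 0.29, adjusted p = 0.0354) and Mrc1 (1.67 ± 0.29, adjusted p = 0.0430), and the calprotectin chains S100a9 (1.80 ± 0.32, adjusted p = 0.0440) and S100a8 (1.64 ± 0.30, adjusted p = 0.0454). In the fit without the block 1.02% of all genes tested rose. With the block 10 of the 20 rose, or 50%, against 7.58% of all genes tested. Summed myeloid signal was 14104 to 21238 in the KO, against 9876 to 12601 in wild type.

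All 10 fibroblast genes had a higher mean and 3 rose, against 54.1% and 1.02% of all genes tested. The 3 were Fap, Col5a2 and Dpt, with limma adjusted p-values of 0.0354, 0.0430 and 0.0482. The summed signal of the 10 was 24827 to 38496 in the KO, against 12652 to 20065 in wild type. In the list for lymph node stroma and follicles, 8 of 10 genes were measured and 4 tested. None passed, and of the 8 measured 4 had a higher mean and 4 a lower one. Cxcl13, which draws B cells into follicles, read 279, 256 and 253 in the KO, against 79.7, 77.5 and 137 in wild type (1.33 ± 0.30, adjusted p = 0.0631, and 0.0264 with the block). A second Cxcl13 probe set overlapped, at 220, 182 and 37.7 in the KO, against 168, 128 and 183 in wild type. Its difference was -0.36. Pdpn, a stromal marker, was higher by 1.53 ± 0.44 (adjusted p = 0.102, and 0.0431 with the block), while Glycam1, a ligand in lymph node vessels that the mammary epithelium also secretes, differed by -0.65 ± 0.39 (adjusted p = 0.342). Cr2 and Fcer2a, follicle markers chosen after their values were seen, had overlapping groups. Both are in the list of further B lineage genes. Cr2, below the filter, read 80.8, 38.9 and 24.9 in the KO, against 61.1, 26.6 and 25.4 in wild type, and Fcer2a read 177, 36.1 and 27.6 in the KO, against 84.7, 21.1 and 19.5. For both genes array 1 was highest in each genotype. Each KO array of Fcer2a lay above the wild-type array of its number, by 0.94, 0.49 and 0.30. Those of Cr2 differed by 0.33, 0.37 and -0.02. No gene of these lists was at 0 in any array.

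Of 13 luminal epithelial genes 5 had a higher mean and none passed (median -0.06). Their summed signal was 18477 to 25064 in the KO, against 21627 to 25690 in wild type. With the block 1 rose and 2 fell, or 7.69% and 15.4%, against 7.58% and 4.44% of all genes tested. Muc1, Cldn7 and Cldn3 differed by -2.03 ± 0.60, -1.22 ± 0.35 and -0.96 ± 0.51 (adjusted p = 0.105, 0.103 and 0.286, and 0.0145, 0.0361 and 0.241 with the block). Basal and myoepithelial genes had 4 of 8 higher and none passed; Trp63, Cnn1 and Acta2 differed by 1.25 ± 0.41, -0.70 ± 0.37 and -0.36 ± 0.24. In endothelium 5 of 10 were higher and none passed, with Vwf at 1.54 ± 0.31 (adjusted p = 0.0524, and 0.0202 with the block), Esam at 0.50 ± 0.31 and Tek at 0.42 ± 0.30. Adipocyte genes had 6 of 9 higher and none passed, with Retn at 1.70 ± 0.48 and Lep at 2.22 ± 0.72 (adjusted p = 0.0984 and 0.131, and 0.0213 and 0.0156 with the block) and Cd36 at -0.59 ± 0.27. Of 3 measured erythroid genes 1 was tested, Alas2, at 1.31 ± 0.46 (adjusted p = 0.151, and 0.0267 with the block). The part that these other cells and the RNA quality have in the lymphocyte values was not tested.

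**Figure D5:**
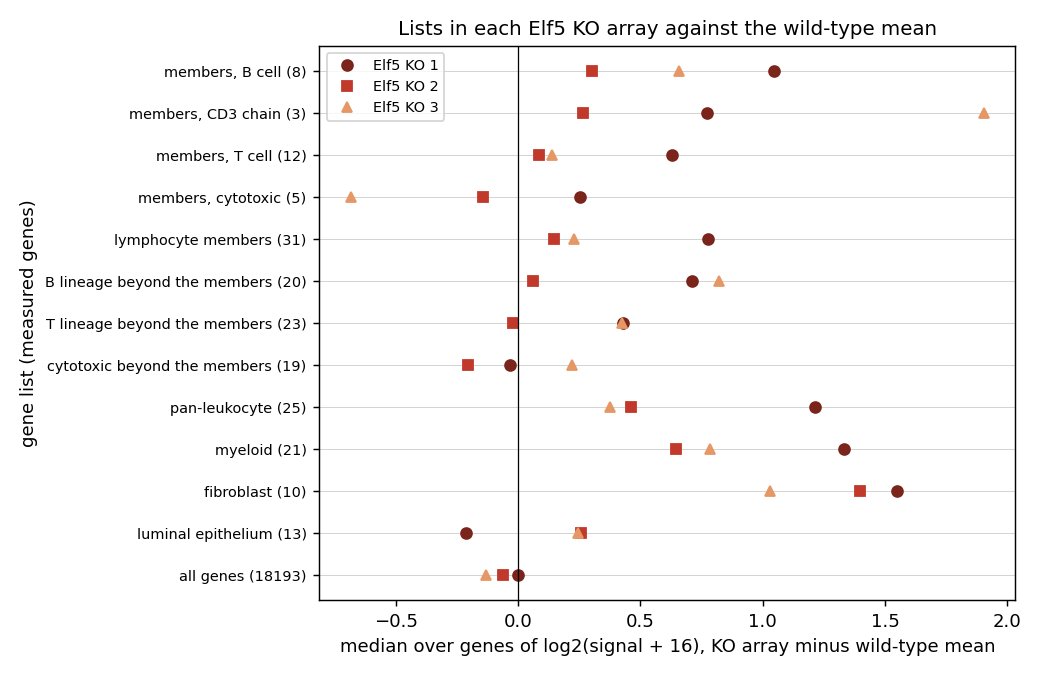
Median over the genes of each list (number measured in brackets) of log2(signal + 16) in each Elf5 KO array minus the wild-type mean, for lymphocyte genes by type, for related lists and for all genes. B cell, pan-leukocyte, myeloid and fibroblast genes lie highest in KO array 1 (1.05, 1.21, 1.33 and 1.55), CD3 chains in KO array 3 (1.90), and all genes lie near 0.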

How the data were processed

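The deposited table holds linear signal intensities of 45101 probe sets on 6 arrays. The authors made them with MAS5 and affy, per the submitters' processing notes; no version or order is given there. Each array's mean after trimming 2% at each end was 150.0. For arrays, their number limits the precision. Array images and detection calls were not used here.

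Probe sets were named by the platform annotation; 34945 had 1 symbol, 932 several and 9160 none listed, and 64 were controls. Of 18193 genes, the 10916 with a mean signal at or above the 40th percentile were tested as log2(signal + 16) with limma 3.58.1 in R 4.3.3 (lmFit, eBayes with an intensity trend, no block, Benjamini-Hochberg over all genes, threshold 0.05). The fit was tested on simulated data with changed genes of 2 sizes. It called 37% of 100 changes of 2 on the log2 scale and 2% of 100 changes of 1, with 0 false calls. A gene not called may therefore still differ by such amounts. The simulated arrays were independent and had the same spread in both groups. The real arrays deviated together by number and differed in RNA quality, so the 0 false calls cannot be carried over to them.

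Members and lists were chosen with earlier results of these data known. Named genes are all members, the called genes of each other list or else the 3 with the smallest p, and Elf5. Titles call the replicates biological and give numbers 1 to 3; the labels do not say that these pair animals. Deviations of same-numbered arrays from their group means correlated at 0.46, 0.34 and 0.30, each over 0.1, and the highest between different numbers was 0.15, so values with the number as a block are given where they change a call. Alternatives changed the pseudocount, filter, normalization, probe choice, trend, block and arrays.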

Additional observations from a re-analysis of the deposited data

How the results depend on the processing

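Of 17 alternatives, 15 left the count of lymphocyte genes called at 0 of those tested. The replicate block called 9, and leaving out each array in turn gave 0 to 4, the 4 without KO array 1 (Cd3d, Il7r and Pou2af1 higher, Il2rb lower). There 11.2% of all genes passed, 6.1% higher and 5.06% lower, and KO arrays 2 and 3, those of the high Gapdh ratios, stood alone for the KO; the Actb ratio was 1.87 and 21.0 in them, against 1.20 to 2.04 in wild type. Over all genes, 119 were called (111 higher, 8 lower), against 1312 with the block, 184 after quantile normalization, 29 with no filter, 15 after centring each array on its median and 0 in the arrays with a Gapdh ratio under 2, where 1015 had an unadjusted p under 0.05. Leaving out single arrays gave 0 to 1218: 1218, 1 and 0 without KO array 1, 2 or 3, and 10, 0 and 1 without wild-type array 1, 2 or 3. Higher calls were 93.3% of all calls and 63.0% with the block. The median difference of the lymphocyte genes tested was 0.45; it was 0.81 in the arrays with a ratio under 2, 0.85 with the 60th percentile filter, which left 7 genes, and 0.23 to 0.63 without single arrays. Centring moved the median of all genes tested by -0.11. A filter on the mean of log2 values, added after seeing the data, called 118 genes and 0 members.

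Among genes that were not called the sign turned as follows, and the cause was not tested. In the arrays with a ratio under 2, Cd37 became 0.90, Cd3e -0.82, Cd5 0.43, Zap70 0.12 and Gzma 0.25. With the mean of all probe sets, Cd37 became 0.13 and Cd8a 0.25. Quantile normalization gave 0.0768 for Cd5 and 0.0108 for Acta2, and centring gave -0.0017 for Ccl5. Without single arrays the differences ranged from -0.20 to 1.01 for Cd79a, -0.82 to 0.39 for Cd37, -0.31 to 1.05 for Cd3e, -0.29 to 0.20 for Cd5, -0.0026 to 0.35 for Nkg7 and -0.0418 to 0.38 for Ccl5. The calls of Blnk, Satb1, Cd163, Mrc1, S100a8, S100a9, Fap, Col5a2 and Dpt were lost in 7 to 11 alternatives each, among them the arrays with a ratio under 2, and their highest adjusted p-values were 0.183 to 0.306. Apart from Pigr no lymphocyte gene averaged over 206.08, and 7 of the 31 measured lay below the filter. No detection calls were used, so dim differences are the least certain.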
